A study of Mus musculus with 2 samples.

Results

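The nuclear genes of oxidative phosphorylation were taken by symbol: rows of the deposited gene tables whose symbol began with Ndufa, Ndufb, Ndufc, Ndufs or Ndufv and a digit, with Uqcr, with Cox and a digit from 4 to 8, or with Atp5, plus Sdha, Sdhb, Sdhc and Sdhd, without symbols that carry -ps. This gave 91 members of 55357 gene identifiers: 42 of complex I, 4 of complex II, 8 of complex III, 19 of complex IV and 18 of complex V. Per the study, the single cells came from crypt-enriched epithelium of the mouse small intestine, with 1 library per genotype. Crypt cells were few among the cells kept, as given below. Both genotypes carry floxed alleles of the adiponectin gene, alone in adip fl/fl and together with Cre under the villin promoter, which is active in gut epithelial cells, in adip fl/fl-Villi-Cre. Each library was a pooled sample of 8-week-old male mice, for which no treatment is named. With 1 library per genotype no test between genotypes is possible, and neither a p-value nor an SD is given. Where a pair of values follows, the first is from adip fl/fl and the second from adip fl/fl-Villi-Cre.

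Complexes I to IV pass electrons from NADH and succinate to oxygen and pump protons across the inner mitochondrial membrane, except complex II, which moves electrons without pumping. Complex V, the ATP synthase, lets the protons return and makes ATP. Complexes I, III, IV and V are built from nuclear and mitochondrially encoded subunits, whereas all subunits of complex II are nuclear. In the small intestine, stem cells and transit-amplifying (TA) cells divide in the crypt, and absorptive enterocytes mature as they move from the bottom of the villus to its tip, where they are shed.

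Levels are unique molecular identifiers (UMIs) of a gene, added up within a cell class, per 1000000 UMIs of that class (CPM), with exact Poisson 95% intervals, and ratios of levels have exact conditional binomial 95% intervals. Both cover counting error only. Cells with more than 500 genes and less than 25% of UMIs from mitochondrially encoded (mt-) genes were kept, 3069 of 9791 and 5555 of 11838 barcodes, with 25687687 and 48895126 UMIs. More than 500 genes were found in 7739 and 9818 barcodes, so most of the loss came from the mt- limit. The limit removed a larger share of these barcodes in adip fl/fl. Over all barcodes mt- genes took 22.1 and 16.5% of the UMIs. The cell classes were clusters named from marker genes, and the members were left out of the variable genes that made the clusters. The crypt class joined 4 sub-clusters with stem or cycling markers (86 and 281 cells), the absorptive classes were villus bottom-like (223 and 439), mid-villus-like (795 and 1342) and villus tip-like (898 and 2079), and the others were goblet-like (225 and 408), tuft-like (76 and 62), enteroendocrine-like (55 and 56), T cell-like (364 and 438), myeloid-like (61 and 32) and B or plasma-like (30 and 29). No cluster was named for Paneth cells, since 7 of 9 Paneth markers were 2-fold higher in the goblet-like cluster beside all 7 goblet markers, and 7 and 5 in a pair of crypt sub-clusters, so these classes can hold Paneth cells. Adipoq, the adiponectin gene, had 0 UMIs in the cells of both libraries, which allows up to 0.117 and 0.0614 CPM, so the labels could not be checked with it.

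Nuclear respiratory transcripts were most abundant at the bottom of the villus and least abundant at its tip. Summed over the members, the level was 48550.2 (48271 to 48830.5) and 46518 (46346 to 46691) CPM in crypt cells, 59321 (59116 to 59526) and 59000.2 (58859 to 59142) in villus bottom-like cells, 39157 (39009 to 39304) and 42047 (41938 to 42156) in mid-villus-like cells and 9582 (9478 to 9687) and 9444 (9376 to 9513) in villus tip-like cells. The order was the same in both libraries, and no neighbouring intervals overlapped. Relative to crypt cells, the level was 1.22 (1.21 to 1.23) and 1.27 (1.26 to 1.27) times as high in villus bottom-like cells and 0.197 (0.195 to 0.200) and 0.203 (0.201 to 0.205) times as high in villus tip-like cells. Within the crypt class, 1 sub-cluster (28 and 87 cells) carried all 11 stem markers and also all 5 fibroblast or muscle markers, 3 of which (Acta2, Col1a2 and Col3a1) were among its 10 leading genes, so it is not called stem-like. The fibroblast or muscle list was at 0 and 402 CPM in it, so that its UMIs there came from adip fl/fl-Villi-Cre cells only. It held 38289.8 and 38926 CPM of member UMIs and the other crypt cells, which were named TA-like, 51025 and 49724. It also carried all 12 cycling markers, and 1 TA-like sub-cluster (11 and 26 cells) carried 9 of the 11 stem markers. The split therefore does not separate stem from cycling cells. An alternative added after seeing the data left out the sub-cluster with fibroblast or muscle markers. The tip to crypt ratio was then 0.188 and 0.190 and the bottom to crypt ratio 1.16 and 1.19. A crypt cell carried a median of 968 and 769 member UMIs from 76 and 76 members, and a villus tip-like cell 31 and 30 from 22 and 21.

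Cell depth and mitochondrial RNA moved along the same axis. The median cell held 19432 and 16987 UMIs in crypt, 21647 and 20485 in villus bottom-like cells, 5460 and 6962 in mid-villus-like cells and 3524 and 3428 in villus tip-like cells, and mt- genes took 4.46 and 4.96%, 6.47 and 6.09%, 12.5 and 11.2% and 19.6 and 19.4% of the UMIs. Counted per 1000000 UMIs outside the mt- genes, the members held 50817 and 48945 in crypt and 11921 and 11718 in villus tip-like cells, so the level at the tip was also lower with the mt- genes out of the denominator. In cells of 3000 to 8000 UMIs alone, a window chosen after seeing the data, the tip to crypt ratio was 0.359 and 0.230, with 10 and 62 crypt cells. These crypt cells held 26524 and 40352 CPM of member UMIs and 14.9 and 7.98% mt- UMIs. The window thus held crypt cells unlike the class as a whole. Keeping only cells of the same classes under 10% mt- UMIs, also chosen after seeing the data, left 12 and 19 villus tip-like cells and ratios of 0.241 and 0.307. When cells under 10% were clustered anew, 29 and 62 villus tip-like cells of lower depth (median 1815 and 1511 UMIs) held 38270 and 26110 CPM of member UMIs, with ratios of 0.771 and 0.550. With no mt- limit the tip to crypt ratio was 0.151 and 0.179, and with only cells of more than 1000 genes 0.229 and 0.228.

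**Figure D1:**
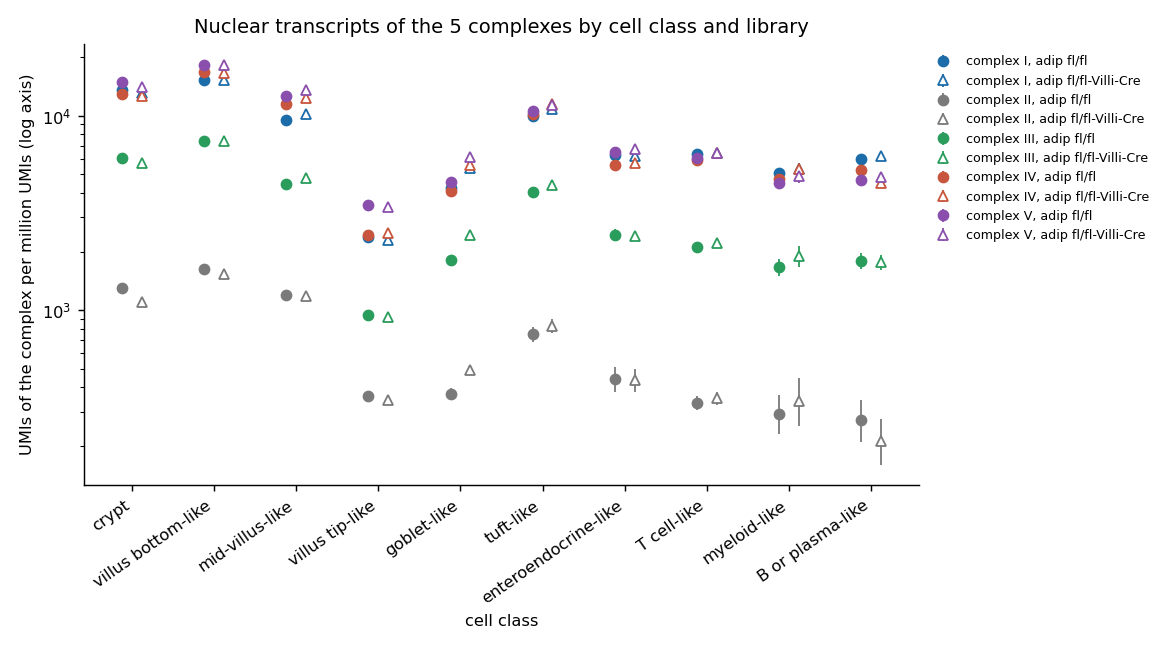
Summed CPM of the nuclear members of each complex (log axis) in 10 cell classes, with filled circles for adip fl/fl, open triangles for adip fl/fl-Villi-Cre and exact Poisson 95% intervals as bars. All 5 complexes were highest in villus bottom-like cells, where complex V reached 18292 and 18256, and complexes I, III, IV and V were lowest in villus tip-like cells.

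All 5 complexes took part, to unequal degrees. From crypt to villus tip-like cells, the summed level of complex III went from 6016 and 5697 to 942 and 922 CPM, a ratio of 0.157 (0.151 to 0.163) and 0.162 (0.158 to 0.166). The ratio was 0.177 (0.172 to 0.181) and 0.176 (0.173 to 0.179) for complex I and 0.189 (0.185 to 0.194) and 0.198 (0.195 to 0.201) for complex IV. Complexes were assigned by symbol, so the complex I sum includes Ndufa4, which is now also assigned to complex IV. The ratios with Ndufa4 in complex IV were not computed, so the order of complexes I and IV rests on this assignment. Complex V kept more of its level, at 0.233 (0.228 to 0.238) and 0.241 (0.238 to 0.244), and complex II most, at 0.280 (0.262 to 0.299) and 0.313 (0.300 to 0.328). The share of all member UMIs taken by complex V was accordingly 30.6% and 30.2% in crypt and 36.0% and 35.9% in villus tip-like cells, whereas complex III took 12.4% and 12.3% in crypt and 9.83% and 9.76% at the tip.

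Member by member, 78 members had at least 50 UMIs over villus tip-like and crypt cells in both libraries. Of these, 76 were at least 1.5-fold lower in villus tip-like cells in both libraries and 2, Cox6b2 and Cox7a1, at least 1.5-fold higher, beside 56.7% lower and 20.2% higher among all genes examined. The median log2 ratio of the members was -2.73 and -2.72, and that of all genes -1.07 and -1.32. The median gene was thus also lower at the tip, and after division by the median ratio of all genes 63 of 78 members in adip fl/fl and 57 of 79 in adip fl/fl-Villi-Cre were at least 1.5-fold lower. The share of all genes past this fold after the division was not counted, so these counts have no background beside them. Besides Cox6b2 and Cox7a1, the 4 members Atp5d, Ndufa1, Ndufa3 and Sdhb, described below with their complexes, lay above the median of all genes in both libraries.

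**Figure D2:**
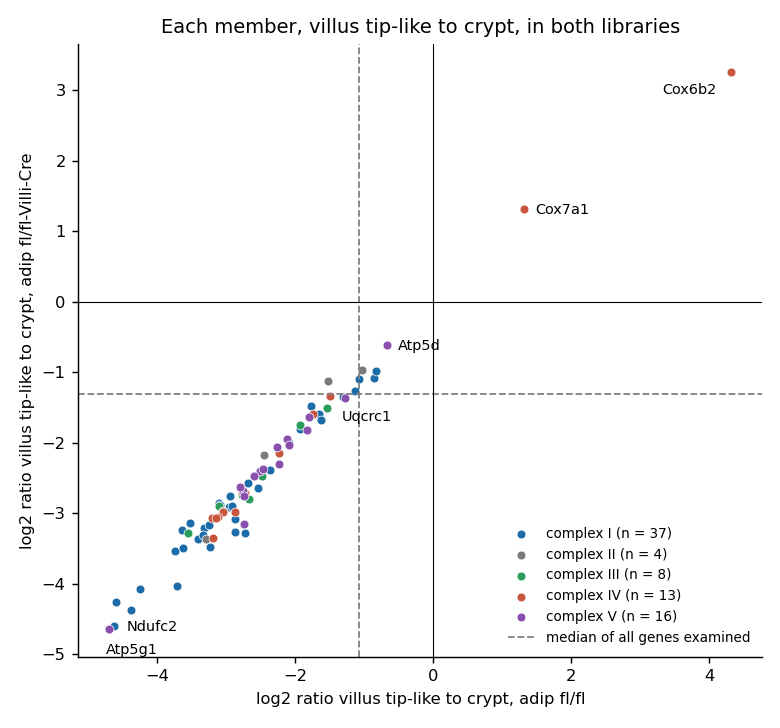
Each point is 1 of 78 members, coloured by complex, with its log2 ratio of levels in villus tip-like to crypt cells in adip fl/fl (x axis) and adip fl/fl-Villi-Cre (y axis), and dashed lines at the median of all genes examined. Points lie near the diagonal from Atp5g1 at -4.69 and -4.64 to Atp5d, and Cox7a1 and Cox6b2 stand alone above 0.

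The steps differed in kind. From crypt to villus bottom-like cells most members were slightly higher: 62 of 78 had a ratio above 1 in both libraries, beside 35.6% of all genes, and the median log2 ratio was 0.27 and 0.31 against -0.22 and -0.26 for all genes. Only Cox7a1 and Ndufa6 reached 1.5-fold in both libraries (16.5% of all genes did). Below 1 in both libraries were 11 members, beside 54.6% of all genes. They were Ndufa5, Ndufa8, Ndufa12, Ndufb6, Ndufb11, Ndufc2, Ndufs3, Ndufs7, Ndufs8, Cox7a2l and Atp5g2, 9 of them among the 37 members of complex I examined. From villus bottom-like to mid-villus-like cells 35 of 79 members were at least 1.5-fold lower in both libraries, beside 26.0% of all genes, and Cox6b2 alone was higher (9.49% of all genes). From mid-villus-like to villus tip-like cells 77 of 78 were lower in both, beside 47.9% of all genes, with a summed ratio of 0.245 (0.242 to 0.248) and 0.225 (0.223 to 0.226). Both steps moved with depth and the mt- limit. In cells of 3000 to 8000 UMIs the mid to bottom ratio was 0.418 and 0.420, on 13 and 18 villus bottom-like cells, beside 0.660 and 0.713 in all cells, and the tip to mid ratio 0.446 and 0.422. Mid-villus-like cells in that window had 20.0 and 18.9% mt- UMIs, beside 12.5 and 11.2% in the class. With a mt- limit of 10% and new clusters the tip to mid ratio was 0.691 and 0.470.

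The classes were not uniform inside. The mid-villus-like class joined 3 clusters with summed member levels of 55110.2 and 55112, 27527 and 28207 and 17659 and 16936 CPM, and the villus tip-like class 3 with 12171 and 11731, 9228 and 9973 and 6558 and 7004. Listed from the deepest, the mid-villus-like clusters had median depths of 18035, 6838 and 3729 UMIs over both libraries. They carried 8, 5 and 3 of 12 mid-villus markers. The shallowest thus had only the 3 markers that a name needed, and it also carried 2 villus tip markers. To order the cells more finely, the 5776 cells of the absorptive villus classes were cut into 5 equal bins of a score, the mean scaled level of villus tip markers minus that of villus bottom markers. The same marker lists named the classes, so the bins are not independent of the clusters. The bins are ranges of a score and not cell types, and 519 cells lay within 0.05 of a cut. From the bin nearest the villus bottom to that nearest the tip the members held 57733 and 58036, 30524 and 34549, 16186 and 16695, 11481 and 11079.8 and 6916 and 7409 CPM. The level was lower in each bin than in the one before it in both libraries. Median depth was 19503 and 19110 UMIs in the bin nearest the villus bottom, 4143 and 5561 in the next and 3824 and 3701 in the bin nearest the tip, and the mt- share was 6.67 and 6.37%, 15.8 and 13.6%, 19.9 and 19.3%, 19.6 and 19.7% and 18.3 and 18.2%. Over the last 3 bins median depth was 3591 and 3548, 3866 and 3452 and 3824 and 3701 UMIs. The members went from 16186 and 16695 to 6916 and 7409 over these bins. Ribosomal protein genes went from 0.554 and 0.564% to 0.312 and 0.342% of the UMIs. The parts of depth, mt- share and other RNA in the lower member levels were not tested.

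**Figure D3:**
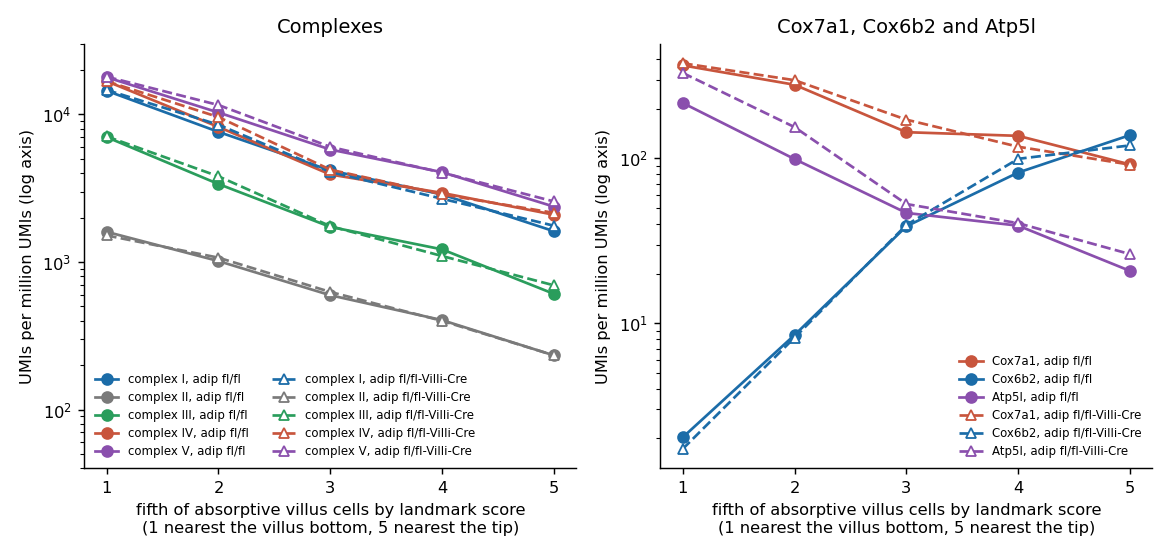
Summed level of each complex (left) and levels of Cox7a1, Cox6b2 and Atp5l (right) in CPM (log axes) over 5 equal bins of absorptive villus cells ordered by the marker score, filled circles and solid lines for adip fl/fl, open triangles and dashed lines for adip fl/fl-Villi-Cre. The 5 complexes go down together from bin 1 to bin 5, and Cox6b2 goes up from 2.02 and 1.72 to 139 and 120.0.

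Complex I oxidises NADH, and its members were lower at the tip to very unequal degrees. All 37 members examined were at least 1.5-fold lower in villus tip-like than in crypt cells in both libraries. Ndufc2, an accessory subunit of the membrane arm, was among the most reduced, at 438 and 453 CPM in crypt cells, 407 and 419.9 in villus bottom-like cells, 188 and 223 in mid-villus-like cells and 17.8 and 18.7 in villus tip-like cells. Its tip to crypt ratio was 0.0406 (0.0307 to 0.0527) and 0.0414 (0.0348 to 0.0489). Ndufb5, another membrane arm subunit, had a ratio of 0.0416 (0.0326 to 0.0525) and 0.0524 (0.0453 to 0.0603), with 541 and 514 CPM in crypt and 22.5 and 26.9 at the tip. At the other end, Ndufa1, a small subunit needed for assembly of the complex, was at 188 and 211 CPM in crypt cells, 343 and 315 in villus bottom-like cells, 316 and 344 in mid-villus-like cells and 104 and 99.6 in villus tip-like cells, with a ratio of 0.554 (0.480 to 0.638) and 0.471 (0.430 to 0.515). Ndufa3 had 223 and 227 in crypt and 126 and 115 at the tip, a ratio of 0.565 (0.496 to 0.643) and 0.506 (0.464 to 0.551). Ndufc2 and Ndufb5 thus stood at one end of the complex and Ndufa1 and Ndufa3 at the other, in both libraries. Ndufa4, first described in complex I and now also assigned to complex IV, went from 1647 and 1734 to 173 and 194, a ratio of 0.105 (0.0961 to 0.115) and 0.112 (0.106 to 0.118). Its isoform Ndufa4l2 had only 1 and 3 UMIs in all cells. Ndufb11b had none.

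Complex II, succinate dehydrogenase, links the chain to the tricarboxylic acid cycle, and its 4 subunits parted at the villus tip. Sdhb, the iron-sulfur subunit, was at 332 and 254 CPM in crypt cells, 478 and 386 in villus bottom-like cells, 395 and 344 in mid-villus-like cells and 162 and 129 in villus tip-like cells, a tip to crypt ratio of 0.490 (0.439 to 0.547) and 0.509 (0.469 to 0.551). Sdhc, a membrane anchor, was at 299.8 and 267 CPM in crypt cells, 377 and 381 in villus bottom-like cells, 260.4 and 288 in mid-villus-like cells and 104 and 123 in villus tip-like cells, a ratio of 0.348 (0.306 to 0.396) and 0.459 (0.424 to 0.498). Both, like Sdha, kept more of the crypt level at the tip than the median member. Sdha, the flavoprotein that oxidises succinate, was at 345 and 301 CPM in crypt cells, 368 and 397 in villus bottom-like cells, 285 and 303 in mid-villus-like cells and 63.2 and 66.6 in villus tip-like cells, a ratio of 0.183 (0.157 to 0.213) and 0.221 (0.200 to 0.244). Sdhd, the other membrane anchor, was at 320.3 and 281 CPM in crypt cells, 397 and 374 in villus bottom-like cells, 251 and 252 in mid-villus-like cells and 32.6 and 27.2 in villus tip-like cells, a ratio of 0.102 (0.0826 to 0.124) and 0.0969 (0.0836 to 0.112). All 4 were lower at the tip than in crypt, and the intervals of Sdhd lay below those of the other 3 subunits in both libraries.

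Complex III passes electrons from ubiquinol to cytochrome c, and all 8 members were at least 1.5-fold lower at the tip. Uqcrh, the hinge subunit near cytochrome c1, went from 1134 and 1039.5 CPM in crypt to 97.2 and 107 in villus tip-like cells, a ratio of 0.0858 (0.0763 to 0.0962) and 0.103 (0.0959 to 0.111). Uqcr11 went from 1009 and 985 to 123 and 126, a ratio of 0.122 (0.109 to 0.135) and 0.128 (0.119 to 0.137). The Rieske iron-sulfur protein Uqcrfs1 and the core protein Uqcrc1 kept more, at 0.263 (0.233 to 0.296) and 0.298 (0.275 to 0.322) and at 0.344 (0.305 to 0.388) and 0.350 (0.323 to 0.380), with 111 and 115 and 122 and 113 CPM at the tip.

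Complex IV, cytochrome c oxidase, held both members that were higher at the tip, and each belongs to a pair of isoforms of 1 subunit. Of the subunit VIb pair, Cox6b1 is the general isoform and Cox6b2 is known from testis. Of the subunit VIIa pair, Cox7a2 is the general isoform and Cox7a1 is known from heart and skeletal muscle. The 250 bases before an annotated start of each of these 4 genes are shown, 5' to 3' on the gene's strand, because the isoforms of each pair differed in direction between crypt and tip. The Cox7a2 window lies inside the annotated span of that gene (chr9:79755241-79771422), so it precedes an internal start. They are RefSeq sequence (GRCm38.p6), and capitals mark the motif cores searched for, as far as any was found.
Cox6b1 (chr7:30626115-30626364, minus strand): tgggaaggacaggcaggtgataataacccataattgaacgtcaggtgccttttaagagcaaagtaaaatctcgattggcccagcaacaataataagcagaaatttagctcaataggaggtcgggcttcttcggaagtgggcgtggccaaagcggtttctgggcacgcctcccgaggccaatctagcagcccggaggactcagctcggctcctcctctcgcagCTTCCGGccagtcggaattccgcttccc
Cox6b2 (chr7:4753095-4753344, minus strand): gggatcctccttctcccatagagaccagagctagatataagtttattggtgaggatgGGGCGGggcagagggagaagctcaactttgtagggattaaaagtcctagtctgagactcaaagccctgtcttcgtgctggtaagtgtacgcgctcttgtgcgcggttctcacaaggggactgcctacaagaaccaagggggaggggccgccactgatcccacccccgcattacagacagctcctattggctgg
Cox7a2 (chr9:79759854-79760103, minus strand): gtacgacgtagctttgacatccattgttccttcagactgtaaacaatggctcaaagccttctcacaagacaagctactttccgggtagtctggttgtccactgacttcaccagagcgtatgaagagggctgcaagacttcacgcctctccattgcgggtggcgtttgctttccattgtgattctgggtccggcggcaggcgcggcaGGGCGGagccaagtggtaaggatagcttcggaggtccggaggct
Cox7a1 (chr7:30183921-30184170, plus strand): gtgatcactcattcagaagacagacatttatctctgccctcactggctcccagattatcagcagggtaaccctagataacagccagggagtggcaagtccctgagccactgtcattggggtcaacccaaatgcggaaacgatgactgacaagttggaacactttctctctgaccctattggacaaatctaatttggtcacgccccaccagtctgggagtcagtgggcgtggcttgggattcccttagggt
The capitals mark a GABP/ETS core in Cox6b1 (read on the other strand) and an Sp1 core in each of Cox6b2 and Cox7a2, and none of the 5 cores was found in the Cox7a1 window. A match is a description of letters, not a binding site.

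Cox6b2 (ENSMUSG00000051811, chr7:4751792-4753094) was at 4.61 and 10.7 CPM in crypt cells, 2.76 and 1.94 in villus bottom-like cells, 11.4 and 9.30 in mid-villus-like cells and 91.9 and 102 in villus tip-like cells. Its tip to crypt ratio was 20.0 (11 to 40.4) and 9.57 (7.41 to 12.5), on 310 and 795 UMIs in villus tip-like cells of 445 and 1115 in all cells. Most of its UMIs thus lay at the tip in both libraries. Over the 5 score bins it was at 2.02 and 1.72, 8.47 and 8.17, 38.7 and 39.5, 82.1 and 99.4 and 139 and 120.0. Its partner Cox6b1 (chr7:30616971-30626114) was at 1124 and 1036 CPM in crypt cells, 1459 and 1363 in villus bottom-like cells, 1025 and 1061 in mid-villus-like cells and 398 and 409 in villus tip-like cells, a ratio of 0.354 (0.331 to 0.378) and 0.395 (0.378 to 0.412). Under the alternatives run, the Cox6b2 ratio stayed above 1, between 4.89 and 30.1 in adip fl/fl and between 7.74 and 15.4 in adip fl/fl-Villi-Cre.

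Cox7a1 (ENSMUSG00000074218, chr7:30184171-30186030) had another shape. It was at 42.7 and 41.6 CPM in crypt cells, 314 and 309 in villus bottom-like cells, 345 and 379 in mid-villus-like cells and 107 and 103 in villus tip-like cells, with a bottom to crypt ratio of 7.35 (6.01 to 9.06) and 7.43 (6.54 to 8.48) and a tip to crypt ratio of 2.50 (2.00 to 3.15) and 2.48 (2.15 to 2.87). It was therefore low in the crypt, highest at the villus bottom and in mid-villus, and lower again at the tip. Cox7a2 was at 1129 and 1052 CPM in crypt cells, 1534 and 1527 in villus bottom-like cells, 1001 and 1124 in mid-villus-like cells and 122 and 126 in villus tip-like cells, a tip to crypt ratio of 0.108 (0.0975 to 0.120) and 0.120 (0.112 to 0.128). The related Cox7a2l, which takes part in supercomplexes, was at 456 and 438 CPM in crypt cells, 439.8 and 408 in villus bottom-like cells, 186 and 180.4 in mid-villus-like cells and 50.1 and 43.1 in villus tip-like cells, a ratio of 0.110 (0.0930 to 0.129) and 0.0983 (0.0875 to 0.110). Cox7a1 also appeared in goblet-like cells (54.4 and 123) and T cell-like cells (11.4 and 39.2), where a list of 9 abundant enterocyte transcripts (among them Fabp1 and Apoa1) had summed levels of 13989.8 and 19098 and 4107 and 10036. The enterocyte list thus moved with these low values, and its part in them was not tested.

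The remaining isoform groups of complex IV followed the general pattern. Cox4i1 was at 1817 and 1713 CPM in crypt cells, 2524 and 2370.3 in villus bottom-like cells, 1963 and 1947 in mid-villus-like cells and 546 and 567 in villus tip-like cells, a tip to crypt ratio of 0.301 (0.285 to 0.318) and 0.331 (0.319 to 0.343), and its hypoxia-linked isoform Cox4i2 had 2 and 1 UMIs in all cells. Cox8a went from 1890.3 and 1819 in crypt to 214 and 216 at the tip, a ratio of 0.113 (0.105 to 0.123) and 0.119 (0.113 to 0.125), and Cox8b, Cox8c and Cox7b2 had no UMI in either library. Cox6a1 went from 675 and 583 to 143 and 132, a ratio of 0.212 (0.191 to 0.235) and 0.226 (0.211 to 0.243). Its muscle isoform Cox6a2 was nearly absent from epithelium and stood in 1 small cluster, the B or plasma-like one, at 959.9 and 437 CPM. There, in a split chosen after the values were seen, all 241 and 114 Cox6a2 UMIs lay in the 23 of 30 and 14 of 29 cells with a UMI of Siglech, a receptor known from plasmacytoid dendritic cells, and the 7 and 15 cells without Siglech held 0, beside 13311 and 16908 UMIs of Igha, an immunoglobulin heavy chain. The cluster's name therefore describes only its Siglech-negative cells. All other cells together held 5 and 26 Cox6a2 UMIs.

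Complex V makes the ATP, and its 16 members examined in both libraries were all at least 1.5-fold lower at the tip. Its c subunit is encoded by Atp5g1, Atp5g2 and Atp5g3, whose mature proteins form the same rotor ring. Atp5g1 (ENSMUSG00000006057, chr11:96072793-96075694) was at 1307 and 1102 CPM in crypt cells, 1291 and 1176 in villus bottom-like cells, 533 and 563 in mid-villus-like cells and 50.7 and 44.1 in villus tip-like cells, a tip to crypt ratio of 0.0388 (0.0331 to 0.0453) and 0.0401 (0.0358 to 0.0446). Atp5g3 was at 1285 and 1166 CPM in crypt cells, 1734 and 1650.3 in villus bottom-like cells, 1228 and 1290.1 in mid-villus-like cells and 226 and 219.8 in villus tip-like cells, a ratio of 0.176 (0.162 to 0.190) and 0.188 (0.179 to 0.199). Atp5g1 thus kept a smaller share of its crypt level than Atp5g3 in both libraries. Atp5g2 was rare, with 3 and 8 UMIs in villus tip-like cells. The values of Atp5g1 and Atp5g2 are uncertain in part, since the last 300 bases of Atp5g2 have annotated copies of 100% identity and those of Atp5g1 a copy, Gm10039, of 99.5% identity over 186 bases that itself held 191 and 482 UMIs. Of the catalytic head, Atp5b went from 1546 and 1465 to 635 and 567, a ratio of 0.411 (0.389 to 0.433) and 0.387 (0.373 to 0.401), and Atp5d, of the central stalk, was at 898 and 833 CPM in crypt cells, 1222 and 1134 in villus bottom-like cells, 1032 and 1017 in mid-villus-like cells and 564 and 543 in villus tip-like cells, a ratio of 0.627 (0.589 to 0.668) and 0.653 (0.626 to 0.680). Atp5d kept the largest share of its crypt level among the members that were lower at the tip. Atp5l (ENSMUSG00000038717, chr9:44913248-44920742), subunit g of the membrane part, was at 194 and 295 CPM in crypt cells, 231 and 344 in villus bottom-like cells, 133 and 209 in mid-villus-like cells and 29.1 and 33.2 in villus tip-like cells, a ratio of 0.150 (0.119 to 0.186) and 0.113 (0.0984 to 0.128). Atp5o has 2 identifiers in the tables, and ENSMUSG00000116933 had no UMI.

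**Figure D4:**
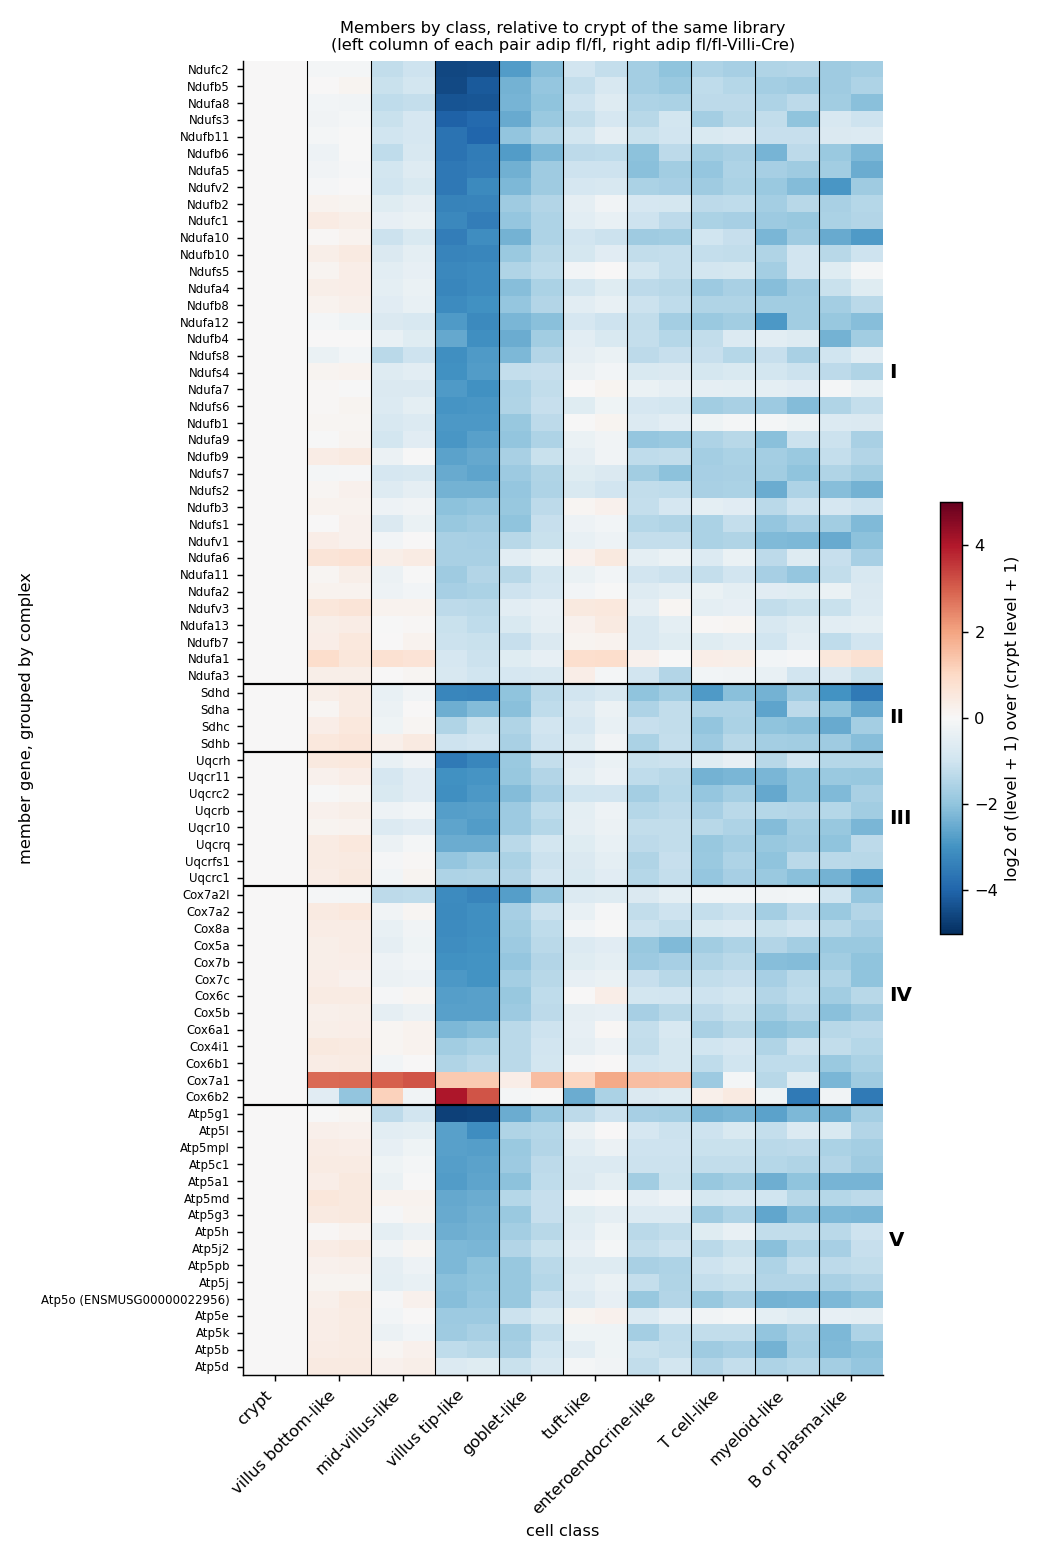
Log2 of (level + 1) over (crypt level + 1) of each member, in lines grouped by complex, in 10 cell classes, the left column of each pair being adip fl/fl and the right adip fl/fl-Villi-Cre, with blue below and red above the crypt level of the same library. The villus tip-like pair is blue for all members drawn but Cox7a1 and Cox6b2, and the villus bottom-like pair is mostly pale red.

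Across the 10 classes of both libraries (20 points that share their libraries and cell depths), the profile of a member had a median correlation of 0.935 with the summed members among the 79 members with at least 500 UMIs. This is a description without a test, and a member's own UMIs are part of the sum. The exceptions at the low end were Cox6b2 at -0.38, Cox7a1 at 0.46 and Atp5g2 at 0.57.

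Of the members, 13 were not examined between tip and crypt for lack of UMIs, 5 of them with none in the cells of either library. Members with short transcripts could be compared with genes of like length. Among transcripts of up to 564 bases, the median log2 tip to crypt ratio was -2.59 and -2.48 for members and -2.48 and -2.68 for all genes. In this length class the members thus lay close to all genes, which include the members. For longer transcripts of up to 830 bases the median was -2.68 and -2.64 for members and -1.81 and -1.88 for all genes. Among transcripts longer than 830 bases it was -2.86 and -2.86 for members and -0.95 and -1.26 for all genes. Of 86 members searched, 27 had an annotated transcript at least 95% identical over 100 or more of their last 300 bases, and for 14 such a copy held at least 50 UMIs itself.

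RefSeq promoter windows, 250 bases before to 50 after the start, were given for 69 of the 91 members. Motif cores of factors known for nuclear respiratory genes were counted on both strands: NRF1 (CATGCGC) in 18.8% of these members and 4.41% of 27025 genes, GABP/ETS (CCGGAAG) in 24.6% and 9.93%, YY1 (GATGGCG) in 14.5% and 4.04%, ERR (AAGGTCA) in 11.6% and 5.38%, and Sp1 (GGGCGG) in 40.6% and 38.2%. These shares were not tested, and they describe letters in the windows only.

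Neighbouring gene lists were set beside the members. Among all genes examined, 58.9% and 62.5% were at least 1.5-fold lower in villus tip-like than in crypt cells, and 22.1% and 20.1% at least 1.5-fold higher. Between crypt and tip the mitochondrially encoded subunits of the same complexes had the opposite direction. They went from 30027 and 32517 CPM in crypt to 51679 and 58044 in villus tip-like cells, with 9 of 13 at least 1.5-fold higher in each library. Not every step was opposite to that of the members. Their sum was 1.47 and 1.37 times as high in villus bottom-like as in crypt cells, where the members were higher too. It was 1.33 and 1.33 times as high in mid-villus-like as in villus bottom-like cells, where the members were lower. From mid-villus-like to villus tip-like cells the ratio was 0.882 and 0.979, lower as for the members. For each nuclear member UMI there were 0.618 and 0.699 mitochondrially encoded UMIs in crypt, 0.745 and 0.756 in villus bottom-like cells, 1.496 and 1.41 in mid-villus-like cells and 5.39 and 6.15 in villus tip-like cells. The limit on mt- UMIs caps the mt- share of each cell kept, but not these ratios themselves. Genes of the mitochondrial ribosome, which translates the mitochondrial messages, were lower at the tip in 37 of 37 and 38 of 38, with a summed ratio of 0.0881 and 0.0895. Assembly factors of the complexes were lower in 36 of 39 and 42 of 44, with a ratio of 0.188 and 0.188, close to that of the members. From crypt to villus bottom-like cells, where the members were higher, both lists were lower. The summed ratio in that step was 0.684 and 0.716 for the mitochondrial ribosome and 0.802 and 0.843 for assembly factors.

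Other metabolic lists were less reduced in sum than the members. Their counts of genes stand beside 58.9% and 62.5% of all genes lower and 22.1% and 20.1% higher. The tricarboxylic acid cycle had a summed tip to crypt ratio of 0.526 and 0.584, with 10 of 14 and 9 of 14 genes lower and 2 higher in each library, and a median log2 ratio of -2.81 and -2.67, close to that of the members. Citrate synthase (Cs), Ogdh and Mdh2 made up most of its sum at the tip, at 476 and 534, 385 and 387 and 455 and 520 of 1736 and 1880 CPM. The mobile electron carriers had a ratio of 0.444 and 0.483, with 12 and 11 of 14 lower, and a median log2 ratio of -2.63 and -2.72. Their sum rested largely on Cycs, the cytochrome c gene, which went from 549 and 509.9 to 399 and 390.1 CPM of 718 and 710.2 for the list at the tip. Glycolysis had a ratio of 0.859 and 0.907, with 6 of 14 lower and 2 higher in each and a median log2 ratio of -0.09 and -0.19. Of 2 further subunits that the symbol rule missed, Cyc1 and Ndufab1, both were lower, with a summed ratio of 0.129 and 0.141, as was Atpif1, the inhibitor of the ATP synthase, at 0.166 and 0.147. Of 13 regulators of respiratory genes, 7 of 10 and 9 of 11 examined were lower, beside the same shares of all genes. The coactivator Ppargc1a was at 20.9 and 18.8 in crypt, 148 and 152 in villus bottom-like cells, 156 and 150.4 in mid-villus-like cells and 37.7 and 17.2 in villus tip-like cells. Its partner receptor Esrra was at 132 and 122, 239 and 241, 243 and 241 and 131 and 111, so that both were higher at the villus bottom than in the crypt. Most regulators were not. From crypt to villus bottom-like cells, 2 of 11 and 2 of 13 examined were at least 1.5-fold higher (19.5% and 18.6% of all genes). At least 1.5-fold lower were 6 of 11 and 8 of 13 (34.4% and 36.8% of all genes). The median log2 ratio of the regulators in this step was -0.66 and -0.93.

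Outside the absorptive lineage, tuft-like cells came nearest to the crypt level and goblet-like cells were lowest in adip fl/fl. The summed level was 35532 and 38748 CPM in tuft-like, 21165 and 21469 in enteroendocrine-like and 15090.5 and 19956 in goblet-like cells, and 20739.8 and 21783 in T cell-like, 16224 and 17716 in myeloid-like and 17912 and 17485 in B or plasma-like cells. Against crypt cells of the same library the ratios were 0.732 (0.721 to 0.743) and 0.833 (0.823 to 0.843) for tuft-like, 0.436 (0.427 to 0.445) and 0.462 (0.452 to 0.471) for enteroendocrine-like, 0.311 (0.307 to 0.315) and 0.429 (0.426 to 0.432) for goblet-like and 0.427 (0.422 to 0.432) and 0.468 (0.464 to 0.473) for T cell-like cells. In both libraries, 18 of 77 members were at least 1.5-fold lower in tuft-like cells (30.2% of all genes), 66 of 77 in enteroendocrine-like cells (31.6%), 72 of 77 in goblet-like cells (47.8%) and 62 of 78 in T cell-like cells (34.9%). In tuft-like cells Cox7a1 and Ndufa1 were higher in both libraries, at 2.16 (1.53 to 3.01) and 3.77 (2.99 to 4.74) and at 1.81 (1.53 to 2.14) and 1.85 (1.62 to 2.11) times the crypt level (16.6% of all genes). The list of 9 enterocyte transcripts was at 17782 and 19829 CPM in tuft-like cells and 2237 and 3693 in crypt cells. Its part in the tuft-like values was not tested. The median depth of the classes outside the absorptive lineage lay below that of crypt cells, at 5340 and 8715 UMIs in tuft-like, 5582 and 6314 in goblet-like and 4585 and 4010 in T cell-like cells. Their ratios to crypt moved in the window of depth, whose crypt cells also had a higher mt- share than the class. In cells of 3000 to 8000 UMIs, with 10 and 62 crypt cells, the ratio to crypt was 0.867 and 0.678 for tuft-like, 0.543 and 0.437 for enteroendocrine-like, 0.254 and 0.188 for goblet-like and 0.768 and 0.536 for T cell-like cells. In that window goblet-like cells held 6731 and 7595 CPM, below villus tip-like cells (9533 and 9285). Without the highest 8% of Scrublet scores the goblet-like level was 8506 and 13760 CPM, a ratio to crypt of 0.173 and 0.290, and the tuft-like ratio 0.472 in adip fl/fl.

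Between genotypes the summed members differed little along the crypt-villus axis. The ratio of the level in adip fl/fl-Villi-Cre to that in adip fl/fl was 0.958 (0.952 to 0.965) in crypt, 0.995 (0.990 to 0.999) in villus bottom-like cells, 1.07 (1.07 to 1.08) in mid-villus-like cells and 0.986 (0.973 to 0.999) in villus tip-like cells. These differences are small beside the distance between classes, and each compares 2 libraries and not 2 genotypes. Their directions are not settled: with only cells of 3000 to 8000 UMIs the ratio was 1.52 in crypt and 1.02 in villus bottom-like cells, with a mt- limit of 10% in the same classes 0.994 in mid-villus-like cells and 1.22 in villus tip-like cells, and with other settings of the clustering 1.00 to 1.08 in villus tip-like cells, against 0.682 in villus tip-like cells when cells under 10% mt- UMIs were clustered anew. At least 1.5-fold higher in adip fl/fl-Villi-Cre were 2 of 79 members in crypt (4.95% of all genes), 1 of 79 in villus bottom-like cells (2.7%), 2 of 80 in mid-villus-like cells (3.14%) and 0 of 78 in villus tip-like cells (3.82%). None was 1.5-fold lower in these 4 classes, beside 1.99%, 2.39%, 2.89% and 6.79% of all genes. In crypt cells the makeup of the libraries differed: a sub-cluster held 4 and 65 of the crypt cells, and a list of fibroblast and muscle markers was at 0.837 and 119.6 CPM, the latter mostly from the sub-cluster with stem and fibroblast markers. Without the former sub-cluster the ratio was 0.960 and without the latter 0.974, both alternatives added after seeing the data.

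**Figure D5:**
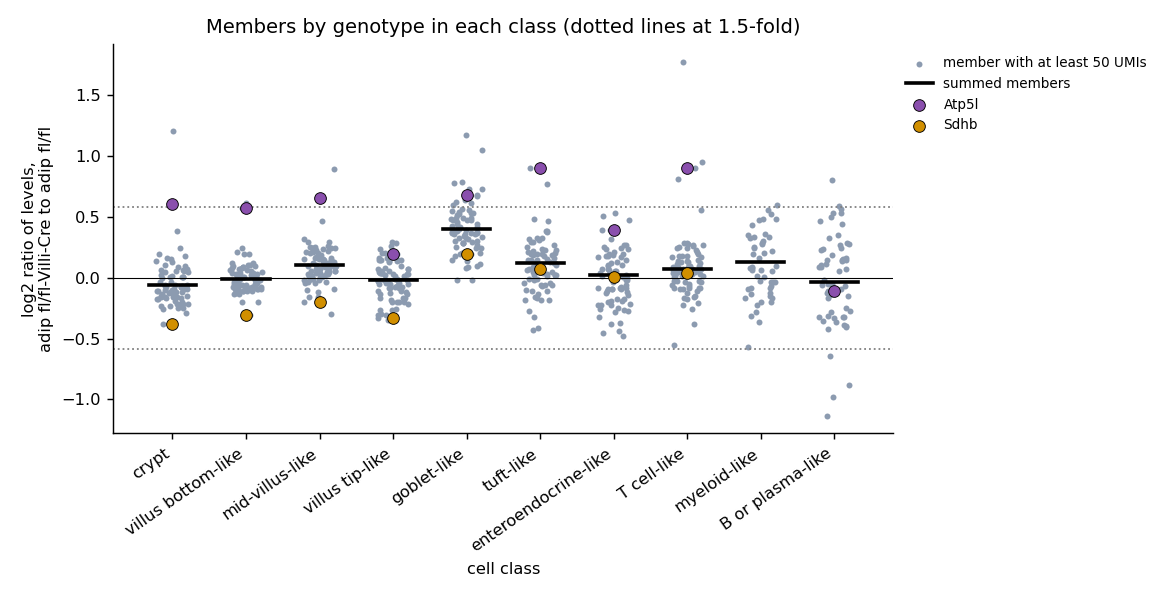
Log2 ratio of levels in adip fl/fl-Villi-Cre to adip fl/fl for each member with at least 50 UMIs over both libraries (grey points) in 10 cell classes, with black bars for the summed members and dotted lines at 1.5-fold. The summed members lie between 0.958 and 1.09 times in all classes but goblet-like cells (1.32), Atp5l lies above 1 in all classes drawn but the B or plasma-like one, and Sdhb lies below 1 in the 4 classes of the crypt-villus axis.

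Atp5l was higher in adip fl/fl-Villi-Cre in most classes. It was at 194 and 295 CPM in crypt, 231 and 344 in villus bottom-like cells, 133 and 209 in mid-villus-like cells and 29.1 and 33.2 in villus tip-like cells. The ratio of adip fl/fl-Villi-Cre to adip fl/fl was 1.52 (1.37 to 1.69), 1.49 (1.40 to 1.59), 1.57 (1.46 to 1.70) and 1.14 (0.903 to 1.46) in these classes. It was higher in adip fl/fl-Villi-Cre in all 4, with an interval that reached below 1 at the tip, where the alternatives gave ratios down to 0.976. In T cell-like cells, a class outside the epithelium, it was at 94.3 and 176, a ratio of 1.87 (1.55 to 2.26), and in goblet-like and tuft-like cells the ratios were 1.61 (1.31 to 1.97) and 1.87 (1.46 to 2.40). In enteroendocrine-like cells it was at 107 and 140.2, a ratio of 1.31 (0.883 to 1.96), and in B or plasma-like cells at 116 and 107, a ratio of 0.930 (0.533 to 1.62). Atp5l has 12 annotated near-identical copies, of which Gm4045 matches it at 100% over 148 bases and held 105 and 227 UMIs in all cells beside 3487 and 10372 for Atp5l, so that its UMIs are uncertain by the share that counting could have split.

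Sdhb was the lowest member in crypt cells and among the lowest at the tip. Its ratio of adip fl/fl-Villi-Cre to adip fl/fl was 0.767 (0.703 to 0.837) in crypt, 0.808 (0.770 to 0.849) in villus bottom-like cells, 0.871 (0.830 to 0.913) in mid-villus-like cells and 0.796 (0.717 to 0.885) in villus tip-like cells, from the levels given with complex II. In goblet-like, tuft-like and T cell-like cells it was 1.15 (0.971 to 1.36), 1.05 (0.829 to 1.34) and 1.03 (0.832 to 1.28), and in enteroendocrine-like cells 1.01 (0.662 to 1.53). In myeloid-like and B or plasma-like cells, on only 37 and 39 UMIs over both libraries, it was 0.739 (0.330 to 1.55) and 0.602 (0.294 to 1.195). Below 1 with an interval that left out 1 were the 4 classes of the crypt-villus axis, and the difference between classes was not tested. The other extremes in crypt were Ndufs8 at 0.819 (0.743 to 0.902), Ndufa11 at 0.835 (0.768 to 0.909), Atp5g2 at 1.30 (0.908 to 1.91) and Cox6b2 at 2.31 (1.21 to 4.87), the last on 75 UMIs. Most Cox6b2 UMIs lay in villus tip-like cells, and the enterocyte list was at 2237 and 3693 CPM in crypt cells. The part of enterocyte RNA in the Cox6b2 ratio was not tested. At the tip, Atp5k was at 1.22 (1.11 to 1.34), Ndufv2 at 1.22 (0.944 to 1.59), Ndufb5 at 1.196 (0.916 to 1.58), Ndufb11 at 0.808 (0.635 to 1.03) and Ndufa12 at 0.787 (0.598 to 1.04). Apart from Atp5k and Sdhb, the intervals of these tip values include 1.

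Goblet-like cells had the largest difference in the summed members. Their level was 15090.5 (14916 to 15266) and 19956 (19812 to 20099.8) CPM, a ratio of 1.32 (1.30 to 1.34). At least 1.5-fold higher in adip fl/fl-Villi-Cre were 14 of 77 members, beside 11.4% of all genes, and 75 of 77 were above 1, beside 62.5%. None was 1.5-fold lower (3.47% of all genes). The median log2 ratio was 0.39 for members and 0.11 for all genes, and after division by the latter 7 members reached 1.5-fold. The share of all genes that did so after the division was not counted. Among the 14 were the complex I subunits Ndufs1 at 1.66 (1.22 to 2.28) and Ndufb4 at 2.08 (1.14 to 4.04), Sdha at 1.55 (1.29 to 1.88), Cox6c at 1.72 (1.57 to 1.88), Cox7a1 at 2.26 (1.82 to 2.83) and Atp5a1 at 1.59 (1.46 to 1.74). Depth and other RNA moved with this result: goblet-like cells held a median of 5582 and 6314 UMIs, the Paneth marker list was at 5269 and 2801 and the enterocyte list at 13989.8 and 19098 CPM. In goblet-like cells of 3000 to 8000 UMIs, 139 and 226 cells, the members were at 6731 and 7595, a ratio of 1.13. Without the highest 8% of Scrublet scores the levels were 8506 and 13760, a ratio of 1.62. The parts of the 2 marker lists were not tested.

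In the remaining classes the ratio of the summed members was 1.09 (1.07 to 1.11) in tuft-like, 1.01 (0.986 to 1.04) in enteroendocrine-like, 1.05 (1.04 to 1.07) in T cell-like, 1.09 (1.04 to 1.15) in myeloid-like and 0.976 (0.937 to 1.02) in B or plasma-like cells. In T cell-like cells 4 of 78 members were at least 1.5-fold higher in adip fl/fl-Villi-Cre (8.12% of all genes): Ndufb4 at 1.75 (1.14 to 2.75), Atp5l, Atp5g2 at 1.94 (1.06 to 3.67) and Cox7a1 at 3.43 (2.07 to 5.92). Cox7a1 there moved with the enterocyte list given above. The corresponding counts were 2 of 76 in tuft-like (6.53%), 0 of 73 in enteroendocrine-like (10.6%), 1 of 50 in myeloid-like (13.8%) and 2 of 59 in B or plasma-like cells (8.16%), none of them above the share of all genes. At least 1.5-fold lower were 4 of 59 in B or plasma-like cells (26.5% of all genes), namely Cox6a2 at 0.455 (0.361 to 0.571), Cox7a2l at 0.507 (0.314 to 0.802), Ndufa5 at 0.542 (0.286 to 0.994) and Ndufa6 at 0.642 (0.397 to 1.03), in a cluster whose share of cells with Siglech differed between the libraries. None was 1.5-fold lower in tuft-like (3.87%), enteroendocrine-like (4.69%), T cell-like (4.73%) or myeloid-like cells (10.9%).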

How the data were processed

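Single-cell suspensions were run on the 10x Genomics 3' kit with 8000 expected cells per library. Per the labels the authors used bcl2fastq 5.0.1, Cell Ranger and the mm10 build. The deposited values are raw UMI counts for each gene and barcode, not normalized, from Cell Ranger 7.1.0 per the file headers, where the methods give another version. Whether intronic reads were counted is not given in the sources used here.

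Barcodes passed as cells with over 500 genes and under 25% mt- UMIs, thresholds of the study's methods that left fewer cells than it states. The libraries shared 3 cell barcodes. Cells were clustered in Seurat 5.3.0 (R 4.3.3) after LogNormalize to 10000, on 2000 variable genes less 24 members, with 20 principal components and resolution 0.8, and crypt clusters were split at resolution 0.4. A name needed 3 markers that were 2-fold higher in the cluster and had 10 or more UMIs there. Clusters without a name held 256 and 389 cells. Doublets were not removed, since Scrublet (scanpy 1.11.5) called 3 and 2 cells; leaving out the highest 8% of scores was an alternative. Classes thus rest on rebuilt names and can differ from the study's.

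UMIs were summed per class. Genes with at least 50 UMIs over both sides were examined, a difference of at least 1.5-fold counted, and 0 UMIs on a side were set to 3. The ratio step was tested on simulated data. Named were Atp5l, all of complex II, the 2 highest and 2 lowest tip to crypt members of complexes I, III, IV and V, the 3 highest and 3 lowest between genotypes in crypt and villus tip-like cells, isoform groups and members without UMIs; Cox6a2 by Siglech and other members named were chosen after their values were seen. The members, gene lists and rules were chosen with earlier results of these data known. Transcripts (GENCODE M21) were compared with BLAST 2.17.0, and positions, for 88 members, and promoters came from RefSeq (GRCm38.p6). Exons of 6 members overlapped those of another gene on the same strand, and the kit keeps strand. Alternatives changed the clustering, the mt- and gene limits, the denominator, the weight of cells, depth, the fold and the UMI minimum. Values were computed with scipy 1.17.1, numpy 2.4.6 and pandas 2.3.3 in Python 3.11.15 and drawn with matplotlib 3.10.9.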

Additional observations from a re-analysis of the deposited data

Results flagged for a closer look

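The summed members differed between the libraries in opposite directions in different cell classes. The ratio of adip fl/fl-Villi-Cre to adip fl/fl was above 1 in mid-villus-like (1.07), goblet-like (1.32), tuft-like (1.09), T cell-like (1.05) and myeloid-like cells (1.09), and below 1 in crypt (0.958), villus bottom-like (0.995) and villus tip-like cells (0.986). With 1 library per genotype the difference between classes was not tested.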

How the results depend on the processing

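The tip to crypt ratio of the summed members (0.197 and 0.203) was 0.185 and 0.201 with the members kept among the variable genes, 0.171 and 0.194 at resolution 0.5, 0.206 and 0.215 at resolution 1.2, 0.142 and 0.159 with the outer score bins, 0.771 and 0.550 with a mt- limit of 10% and new clusters, 0.241 and 0.307 with that limit in the same classes, 0.151 and 0.179 with no mt- limit, 0.229 and 0.228 with more than 1000 genes, 0.235 and 0.239 per UMI outside mt- genes, 0.201 in adip fl/fl-Villi-Cre per UMI outside mt- and ribosomal protein genes, 0.219 and 0.211 as a mean of cells, 0.192 and 0.199 without the highest 8% of Scrublet scores, 0.201 in adip fl/fl-Villi-Cre without the crypt sub-cluster of 4 and 65 cells, 0.188 and 0.190 without that with fibroblast markers and 0.359 and 0.230 in cells of 3000 to 8000 UMIs. The bottom to crypt ratio of the summed members (1.22 and 1.27) was 1.21 and 1.25 with the members kept among the variable genes, 1.21 in adip fl/fl at resolution 0.5, 1.19 and 1.25 with the outer score bins, 1.25 in adip fl/fl with a mt- limit of 10% and new clusters, 1.24 in adip fl/fl with that limit in the same classes, 1.19 and 1.25 with no mt- limit, 1.15 and 1.19 with more than 1000 genes, 1.25 and 1.28 per UMI outside mt- genes, 1.17 and 1.199 per UMI outside mt- and ribosomal protein genes, 1.30 and 1.32 as a mean of cells, 1.21 and 1.26 without the highest 8% of Scrublet scores, 1.21 and 1.26 without the crypt sub-cluster of 4 and 65 cells, 1.16 and 1.19 without that with fibroblast markers and 1.93 and 1.30 in cells of 3000 to 8000 UMIs. Both kept their direction under all alternatives that gave a value, and the cause of the shifts was not tested. For these ratios and those below, a setting or library not listed gave a value inside the main interval or did not apply. The ratio between genotypes in crypt cells (0.958) was 0.968 with more than 1000 genes, 1.00 as a mean of cells, 0.974 without the sub-cluster with fibroblast markers and 1.52 in cells of 3000 to 8000 UMIs. The ratio between genotypes in villus bottom-like cells (0.995) was 1.00 with the outer score bins, 0.972 with a mt- limit of 10% and new clusters, 0.984 with that limit in the same classes, 1.00 with no mt- limit, 0.983 per UMI outside mt- and ribosomal protein genes, 1.02 as a mean of cells, 1.00 without the highest 8% of Scrublet scores and 1.02 in cells of 3000 to 8000 UMIs. The ratio between genotypes in mid-villus-like cells (1.07) was 1.10 with the members kept among the variable genes, 1.10 at resolution 0.5, 1.01 at resolution 1.2, 1.00 with a mt- limit of 10% and new clusters, 0.994 with that limit in the same classes, 1.00 with no mt- limit, 1.06 with more than 1000 genes, 1.06 per UMI outside mt- genes, 1.06 per UMI outside mt- and ribosomal protein genes, 1.11 as a mean of cells, 1.02 without the highest 8% of Scrublet scores and 1.03 in cells of 3000 to 8000 UMIs. The ratio between genotypes in villus tip-like cells (0.986) was 1.04 with the members kept among the variable genes, 1.08 at resolution 0.5, 1.00 at resolution 1.2, 1.07 with the outer score bins, 0.682 with a mt- limit of 10% and new clusters, 1.22 with that limit in the same classes, 1.13 with no mt- limit, 0.964 with more than 1000 genes, 0.964 as a mean of cells and 0.999 without the highest 8% of Scrublet scores. The ratio between genotypes in goblet-like cells (1.32) was 1.36 with a mt- limit of 10% and new clusters, 1.40 with that limit in the same classes, 1.25 as a mean of cells, 1.62 without the highest 8% of Scrublet scores and 1.13 in cells of 3000 to 8000 UMIs. The ratio between genotypes in T cell-like cells (1.05) was 1.07 with a mt- limit of 10% and new clusters, 1.07 with that limit in the same classes, 1.03 with no mt- limit, 1.07 with more than 1000 genes, 1.03 as a mean of cells and 1.03 without the highest 8% of Scrublet scores. Of members at least 1.5-fold higher in adip fl/fl-Villi-Cre, a 2-fold limit left 1 in crypt, 0 in villus bottom-like cells, 0 in mid-villus-like cells, 2 in goblet-like and 1 in T cell-like cells, a minimum of 1 UMI gave 2 in villus bottom-like cells, and division by the median ratio of all genes 7 in goblet-like cells. No share of all genes was counted under these settings, so the counts have no background beside them.

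No paired analysis was possible because each genotype has a single library, so that the shared replicate number gives 1 pair and no spread between pairs. The direction between genotypes turned under at least 1 alternative in all 4 classes from crypt to villus tip, and kept its sign in goblet-like and T cell-like cells. The crypt ratio in the depth window rests on 10 crypt cells of adip fl/fl, and the villus tip-like ratios under a mt- limit of 10% on 12 to 62 cells. Those 10 crypt cells had 14.9% mt- UMIs, beside 4.46% in the class. The windows of depth, the mt- limit in the same classes and the crypt without either sub-cluster were chosen after seeing the data. The Atp5l ratio lay between 1.49 and 1.91 in crypt, 1.41 and 2.26 in villus bottom-like cells, 1.11 and 1.64 in mid-villus-like cells and 0.976 and 1.28 in villus tip-like cells over its alternatives. Counting error is small for the sums and exceeds the differences for members with few UMIs at the tip.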
